A study of Homo sapiens
Mus musculus and Mus musculus and Homo sapiens with 16 samples.

Results

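The NLRP genes NLRP7, NLRP11, NLRP2, NLRP1, NLRP4 and NLRP3 were followed in REC-1, a human mantle cell lymphoma line, 6 of the 58051 genes of the human count table. They were chosen by symbol, with their levels and changes across these same libraries known, so their values are given as a description and carry no test. RNA was sequenced from REC-1 cells cultured alone (Sep), from REC-1 cells left in suspension above MS-5 cells (Susp) and from those that adhered to the MS-5 layer (Adh), with 4 libraries in each group and 24 h of culture in the medium that the labels give for mono- and cocultures. MS-5 is a stromal cell line from mouse bone marrow, and it was also sequenced alone in 4 libraries. The Adh samples held RNA of both species, and their human reads were separated from mouse reads by sequence. The labels name no genotype or drug that differed between the groups, and each cell type was represented by a single established line. The study describes the libraries of a group as independent experiments, while the labels do not say what a replicate number marks, so the error below is the spread between these libraries.

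NLRP proteins are intracellular sensors with a nucleotide-binding NACHT domain, leucine-rich repeats and an N-terminal pyrin domain. NLRP3 and NLRP1 are the family members best known for assembling inflammasomes, in which the adaptor ASC (PYCARD) recruits caspase-1 (CASP1) to process interleukin-1β and interleukin-18 and to cleave gasdermin D (GSDMD). NLRP2, NLRP4, NLRP7 and NLRP11 belong to a primate-expanded cluster on chromosome 19 and are best known from oocytes and early embryos, where NLRP7 variants cause recurrent hydatidiform mole, or as modulators of innate immune signalling. The mouse has no direct counterpart of NLRP7 or NLRP11.

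In GRCh38, with the GENCODE annotation, NLRP7 (ENSG00000167634) lies on the minus strand at chr19:54923509-54966312 and NLRP2 (ENSG00000022556) on the plus strand at chr19:54953130-55001142. The start sites of their canonical transcripts stand head to head, 131 bases apart. Of 9884 protein-coding genes on the minus strand, 262 (2.65%) had a plus-strand start within that distance. The gene spans overlap by 13183 bases but share no exonic base. NLRP11 (ENSG00000179873, minus strand, chr19:55785397-55836800) and NLRP4 (ENSG00000160505, plus strand, chr19:55836540-55881855) form another divergent pair by their annotated spans. They have 261 overlapping bases that are exonic in both and make up 6.05% of NLRP11 and 6.62% of NLRP4 exon length. The canonical start of NLRP11 is at 55831999 and that of NLRP4 at 55836540, so the overlap lies outside the canonical NLRP11 transcript. The NLRP11 bases printed below do not include the overlap. The library kit does not mark strand, so reads within the overlapping bases could not be assigned to one gene or the other by their orientation. NLRP1 (ENSG00000091592, minus strand) lies at chr17:5499415-5619424 and NLRP3 (ENSG00000162711, plus strand) at chr1:247416156-247449108.

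The interval between the canonical NLRP7 and NLRP2 start sites is shown because a single stretch of DNA precedes both of these starts. Of this pair, NLRP7 alone was separated between groups in CPM. The annotated span of NLRP2 begins at 54953130, before its canonical start at 54966374. That of NLRP7, on the minus strand, reaches 54966312, beyond its canonical start at 54966243. Counts were made per gene, so the start that the reads came from is not known. The interval is given on the plus strand of GRCh38 with 30 bases beyond each canonical start (chr19:54966213-54966404). Beside it are the 250 bases before the canonical start of NLRP11 on its own strand (chr19:55832000-55832249, minus strand). Capitals mark the GC box GGGCGG and the CCAAT box on either strand.
NLRP7-NLRP2 interval: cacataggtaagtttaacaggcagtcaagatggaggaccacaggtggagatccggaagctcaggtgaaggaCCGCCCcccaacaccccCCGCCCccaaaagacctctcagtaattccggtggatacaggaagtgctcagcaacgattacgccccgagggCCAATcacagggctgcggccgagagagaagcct
NLRP11 upstream: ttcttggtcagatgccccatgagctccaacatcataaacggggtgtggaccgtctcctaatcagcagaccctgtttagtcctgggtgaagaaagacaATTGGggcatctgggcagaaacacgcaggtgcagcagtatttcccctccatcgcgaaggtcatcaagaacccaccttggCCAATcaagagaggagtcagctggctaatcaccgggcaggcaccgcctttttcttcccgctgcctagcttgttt
Both GC boxes of the NLRP7 to NLRP2 interval lie between the start sites, while its CCAAT box spans the NLRP2 start. In windows from 250 bases before to 50 after each canonical start, the GC box occurred 2 times for NLRP7, 2 for NLRP2 and 1 for NLRP4, and it occurred in 61.3% of 20033 promoter windows of protein-coding genes. The CCAAT box, a motif added after the letters had been seen, occurred 1 time for NLRP7, 2 times for NLRP11, 2 for NLRP2 and 3 for NLRP4, and in 36.1% of all windows. The NLRP7 and NLRP2 windows overlap. The GC boxes and the CCAAT box of the NLRP7 window are sites that were counted for NLRP2 as well. None of the 6 windows held the interferon response element core GAAANNGAAA, the NF-κB form GGGNNTTTCC, the cyclic AMP response element TGACGTCA or the E-box CACGTG, which occurred in 3.28%, 1.98%, 2.69% and 8.76% of all windows. A looser NF-κB form, GGGANNNTCC, occurred 1 time for NLRP4 and in 5.51% of all windows, and TATAAA occurred 1 time for NLRP3 and in 9.71%. The member windows held 54.0% to 60.0% G and C and 5 to 14 CpG sites, against medians of 63.7% and 23 over all windows.

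Human counts per library came to 9325412 to 12597891 in Sep, 15000927 to 21467832 in Susp and 7758979 to 13241751 in Adh. Levels are given as CPM, the count scaled to the total of its library, after TMM scaling, an adjustment for library composition. The B cell markers MS4A1 (1159 ± 142 CPM in Sep, SD, n = 4), CD79A (994.2 ± 71.1 CPM) and PAX5 (911.4 ± 66.4 CPM) were abundant. Summed within a library, the 7 stromal markers reached at most 2.68 CPM and the 7 monocyte and macrophage markers at most 2.41 CPM. The 6 T and NK cell markers summed to at most 7.83 CPM, and CD3E made up most of it in Adh, at 5.30 ± 1.83 CPM (SD, n = 4).

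NLRP7 was the member that differed most between cultures. Its level was 5.83, 7.03, 6.49 and 7.97 CPM in the Sep libraries (62 to 100 counts). In Susp it was 11.4, 13.7, 9.67 and 13.6 CPM (172 to 222 counts), and in Adh 15.8, 13.5, 19.7 and 17.1 CPM (133 to 210 counts). Every library that had shared a dish with MS-5 stood above every Sep library. The Susp and Adh groups overlapped, since Adh replicate 2 lay below the highest Susp library. On the log2 scale the fitted change was 1.26 ± 0.17 (SE) from Sep to Adh, a 2.40-fold higher level, and 0.82 ± 0.16 from Sep to Susp, 1.76-fold. From Susp to Adh it was 0.45 ± 0.16, 1.36-fold. In bulk RNA, more cells that express a gene and more RNA per cell cannot be told apart.

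NLRP11, a regulator of innate signalling in primates, stood apart in adhered cells. It was at 20.4, 18.4, 18.1 and 19.5 CPM in Sep, at 21.8, 18.2, 19.0 and 19.5 CPM in Susp and at 29.6, 32.7, 28.8 and 36.6 CPM in Adh. The lowest Adh library lay above the highest library of either other group, and the Sep and Susp ranges overlapped. The log2 change was 0.74 ± 0.11 (SE) from Sep to Adh (1.67-fold) and 0.70 ± 0.11 from Susp to Adh (1.62-fold), against 0.04 ± 0.11 from Sep to Susp.

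**Figure D1:**
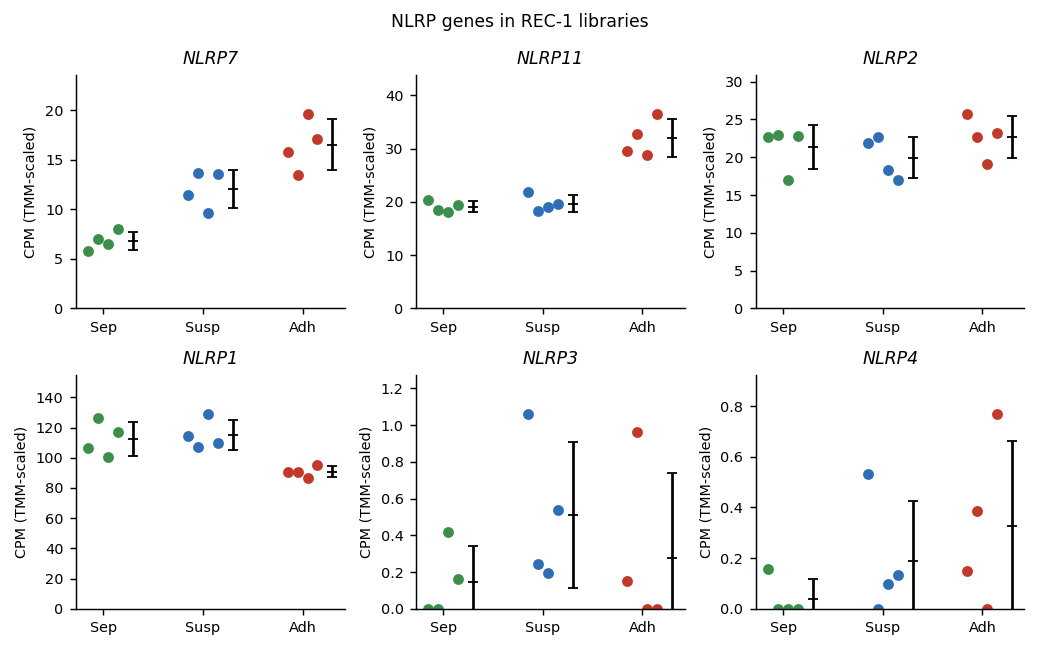
Level of each NLRP gene in the 12 REC-1 libraries, in CPM after TMM scaling on a linear axis from 0 with its own range in each panel. Each point is a library, and the black bar is the mean ± SD of 4 libraries. NLRP7 points stand above all Sep points in both coculture fractions, NLRP11 points do so in Adh, NLRP1 points in Adh lie below those of Sep and Susp, and NLRP3 and NLRP4 stay near or below 1 CPM.

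NLRP2, whose canonical start bounds the interval printed above with that of NLRP7, had no such separation between groups. NLRP2 was at 22.7, 22.9, 17.0 and 22.8 CPM in Sep, at 21.9, 22.7, 18.3 and 17.0 CPM in Susp and at 25.8, 22.6, 19.1 and 23.2 CPM in Adh. The ranges of all 3 groups overlapped. Its log2 change was 0.09 ± 0.14 (SE) from Sep to Adh, 0.19 ± 0.14 from Susp to Adh and -0.10 ± 0.14 from Sep to Susp.

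The unequal change of this divergent pair could be read within each library, where depth and scaling cancel. The ratio of NLRP7 to NLRP2 counts was 0.257 to 0.383 in Sep, 0.521 to 0.798 in Susp and 0.596 to 1.03 in Adh, with means of 0.324 ± 0.055, 0.613 ± 0.129 and 0.742 ± 0.200 (SD, n = 4). No Sep library reached the lowest ratio of either coculture fraction. The ratio of NLRP11 to NLRP2 counts was 0.803 to 1.07 in Sep and 0.802 to 1.15 in Susp, against 1.15 to 1.58 in Adh, where the lowest library was level with the highest Susp library. Across the 12 libraries the log2 CPM of NLRP7 and NLRP2 had a Pearson r of 0.12, and NLRP7 and NLRP11 of 0.69. After subtracting the group means these were -0.05 and -0.26, values that describe 12 libraries which share a cell line and preparation.

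NLRP1, an inflammasome sensor of danger and viral proteases, was the most abundant member by counts. It was at 106.4, 126.1, 100.2 and 117.2 CPM in Sep, at 114.7, 106.8, 129.1 and 109.7 CPM in Susp and at 90.73, 90.7, 86.34 and 95.46 CPM in Adh. All Adh libraries lay below all Sep and Susp libraries. The log2 change was -0.31 ± 0.09 (SE) from Sep to Adh and -0.34 ± 0.09 from Susp to Adh, each under 1.5-fold, and 0.03 ± 0.09 from Sep to Susp.

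NLRP3, the sensor of potassium efflux and membrane stress, and NLRP4, an oocyte-expressed member, were close to undetected and did not pass the filter on low counts. NLRP3 had 0, 0, 4 and 2 counts in Sep, 16, 4, 4 and 8 in Susp and 2, 10, 0 and 0 in Adh. NLRP4 had 2, 0, 0 and 0 counts in Sep, 8, 0, 2 and 2 in Susp and 2, 4, 0 and 6 in Adh. The groups overlapped for both genes, and no difference could be read at this depth. Counts were more often even than odd. Every NLRP3 and NLRP4 count above 0 was even, and so were 47 of the 63 counts above 0 of all members, large ones included (74.6%). Of all REC-1 counts from 3 to 10, 68.7% were even, and 54.8% of those above 200 and up to 1000. The cause was not tested, and counting error may be wider than small counts imply.

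**Figure D2:**
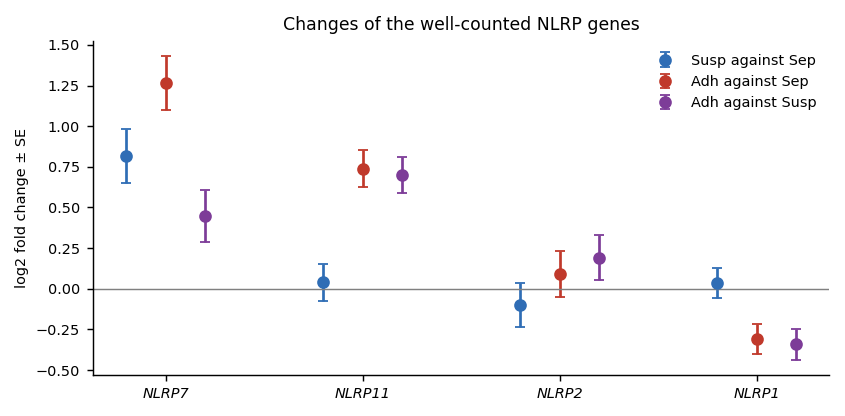
Fitted log2 fold change with its SE (bars) of the 4 NLRP genes that passed the filter, for Susp against Sep, Adh against Sep and Adh against Susp. NLRP7 lies at 0.82 and 1.26 against Sep, NLRP11 near 0 in Susp and at 0.74 in Adh, NLRP2 within 0.19 of 0, and NLRP1 at -0.31 in Adh against Sep.

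All 6 members are accounted for: 4 passed the filter, and of these the threshold of a 1.5-fold change with an edgeR adjusted p-value of at most 0.05 was met by NLRP7 and NLRP11 for Adh against Sep, where 2.40% of all 12861 tested genes met it. NLRP11 met it for Adh against Susp (0.778% of all genes) and NLRP7 for Susp against Sep (0.731%). Groups did not overlap in CPM for NLRP7, NLRP11 and NLRP1 between Adh and Sep, for NLRP11 and NLRP1 between Adh and Susp and for NLRP7 between Susp and Sep, against 15.7%, 11.4% and 11.3% of all tested genes. As the members were chosen with these contrasts known, nothing is read from those shares. The comparisons share libraries, each group entering a pair of them, so they are not independent of each other. NLRP7 met the threshold for Susp against Sep in 14 of 19 other settings, and it missed it without Sep replicate 1, 2 or 3, without Susp replicate 4 or with libraries thinned to the smallest one, at log2 changes of 0.75, 0.83, 0.80, 0.76 and 0.73.

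Per length of transcript the order of the members depended on the length used. With the union of all annotated exons, Sep levels were 5.58 ± 0.57 RPKM (CPM per kilobase; SD, n = 4) for NLRP1, 4.43 ± 0.24 for NLRP11, 3.38 ± 0.46 for NLRP2 and 1.73 ± 0.23 for NLRP7, with NLRP3 and NLRP4 at 0.030 and 0.010. The ranges of these first 4 genes did not overlap in Sep. In Adh, NLRP11 came first at 7.40 ± 0.82 RPKM, followed by NLRP1 at 4.50 ± 0.18, NLRP7 at 4.19 ± 0.65 and NLRP2 at 3.60 ± 0.43. The ranges of NLRP1 and NLRP7 overlapped in Adh, as did those of NLRP7 and NLRP2. In Susp the means were 5.71 for NLRP1, 4.55 for NLRP11, 3.16 for NLRP2 and 3.06 for NLRP7, the last pair again overlapping. With the canonical transcript alone NLRP1 led in every group, at 20.1, 20.5 and 16.2 RPKM in Sep, Susp and Adh, and NLRP2 and NLRP11 lay close together in Sep at 6.03 ± 0.83 and 5.57 ± 0.30. The union of NLRP1 exons measures 20157 bases and its canonical transcript 5610, which sets the gap between both scales. The authors counted reads on the exons of an Ensembl release, while these lengths came from a different, GENCODE release. Counts and lengths may thus rest on different exons. How far the order of the members on either scale depends on that was not tested.

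Outside the 6 members, few counts fell on the family in REC-1. None of the other 8 NLRP genes passed the filter: NLRP8 and NLRP10 had 0 counts in all 12 libraries, which allows up to 0.0195 CPM over the 153672774 counts as far as counting error alone goes. NLRP5 had 3 counts in all, NLRP12 2, NLRP13 2, NLRP9 17, NLRP6 28 and NLRP14 41. Of the 5 partners of the oocyte complex to which maternal NLRP proteins belong, KHDC3L had 0 counts, OOEP 2, PADI6 2 and TLE6 10. The zinc finger gene ZBED3 was the only one tested, at 8.53 ± 0.69, 6.44 ± 1.70 and 10.0 ± 1.32 CPM in Sep, Susp and Adh.

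The genes that act beside NLRP proteins were tested as well, in lists drawn up with earlier results of these data known. Their p-values do not allow for that choice. Of a list of 51 other NLR and inflammasome genes 28 were tested, and 1 was called lower in Adh than Sep, none differed between Adh and Susp, and 1 was called lower in Susp than Sep, against 2.40%, 0.778% and 0.731% of all tested genes called in either direction. Counts this small do not set the list apart from other genes. The gene was CIITA in both cases, the NLR family coactivator of MHC class II transcription. Its level was 39.0 to 64.2 CPM in Sep, 24.9 to 30.7 CPM in Susp and 24.1 to 29.4 CPM in Adh, so both coculture fractions lay below every Sep library. The log2 change was -0.91 ± 0.15 (SE, edgeR adjusted p = 0.00177) from Sep to Adh and -0.82 ± 0.14 (edgeR adjusted p = 0.00749) from Sep to Susp. Between Adh and Susp it was -0.10 ± 0.15 (edgeR adjusted p = 0.744). The median log2 change of the list was 0.04, 0.06 and -0.04 for Adh against Sep, Adh against Susp and Susp against Sep, beside -0.0034, -0.0051 and -0.0059 for all tested genes. An unadjusted edgeR p-value under 0.05 was found for 3, 4 and 6 list genes in the same order of comparisons. The share of all tested genes under that value is not given here, so nothing is read from these counts. For Adh against Susp, where edgeR called none, DESeq2 called 1.

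The other tested NLR genes were measured at low to moderate levels and did not pass the test. NAIP, with 24 counts in all, and NOD2, with 12, did not pass the filter and were not tested. NLRC3, a brake on T cell and STING signalling, was at 38.3 ± 3.33 CPM in Sep and 37.9 ± 4.83 in Adh, and NLRC5, the coactivator of MHC class I, at 17.4 ± 1.39 and 14.9 ± 2.27. NLRX1, a mitochondrial member, was at 10.9 ± 1.52 and 9.64 ± 1.16 CPM. NOD1, a sensor of bacterial cell wall, was at 4.82 ± 0.61 in Sep, 3.47 ± 0.40 in Susp and 4.05 ± 0.88 in Adh. Among sensors outside the NLR family, the DNA sensors IFI16 (536.2 ± 50.2 CPM in Sep, 562.7 ± 37.7 in Adh) and AIM2 (80.2 ± 4.34 and 95.3 ± 11.3) were the most abundant, and CARD8 was at 19.3 ± 1.73 and 18.5 ± 1.92. The log2 change of AIM2 from Sep to Adh was 0.25 ± 0.09 (edgeR adjusted p = 0.143).

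Downstream components were measured up to the executioners, while the cytokines were at or near 0 counts. The adaptor PYCARD was low, at 3.65 ± 0.66 CPM in Sep, 3.51 ± 0.41 in Susp and 3.89 ± 1.16 in Adh. CASP1 was at 58.4 ± 6.40, 60.2 ± 6.84 and 60.8 ± 2.95 CPM, CASP4, the sensor of cytosolic lipopolysaccharide, at 41.6 ± 1.11, 40.0 ± 4.93 and 45.98 ± 1.19, and CASP8 at 30.4 ± 2.61, 28.9 ± 1.53 and 29.0 ± 2.04. Their log2 changes lay between -0.07 and 0.20 in all 3 comparisons, and no adjusted p-value passed the threshold. IL1B had 0 counts in all 12 libraries, IL1A 1 count, IL37 4 and IL18 6.

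GSDMD, the pore-forming substrate of CASP1 and CASP4, was at 36.5 ± 8.45 CPM in Sep, 47.6 ± 12.01 in Susp and 28.3 ± 5.72 in Adh. Its log2 change from Susp to Adh was -0.75 ± 0.19 (edgeR adjusted p = 0.0720) and did not pass the test. Of genes upstream of NLRP3, the kinase NEK7 was at 40.2 ± 5.58, 38.91 ± 7.40 and 40.6 ± 3.41 CPM. The potassium channel KCNN4 was at 1.52 ± 0.36 CPM in Sep, 3.95 ± 0.83 in Susp and 3.11 ± 1.49 in Adh, with a log2 change of 1.39 ± 0.33 from Sep to Susp (edgeR adjusted p = 0.0613). KCNN4 and GSDMD were each called in some other settings.

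**Figure D3:**
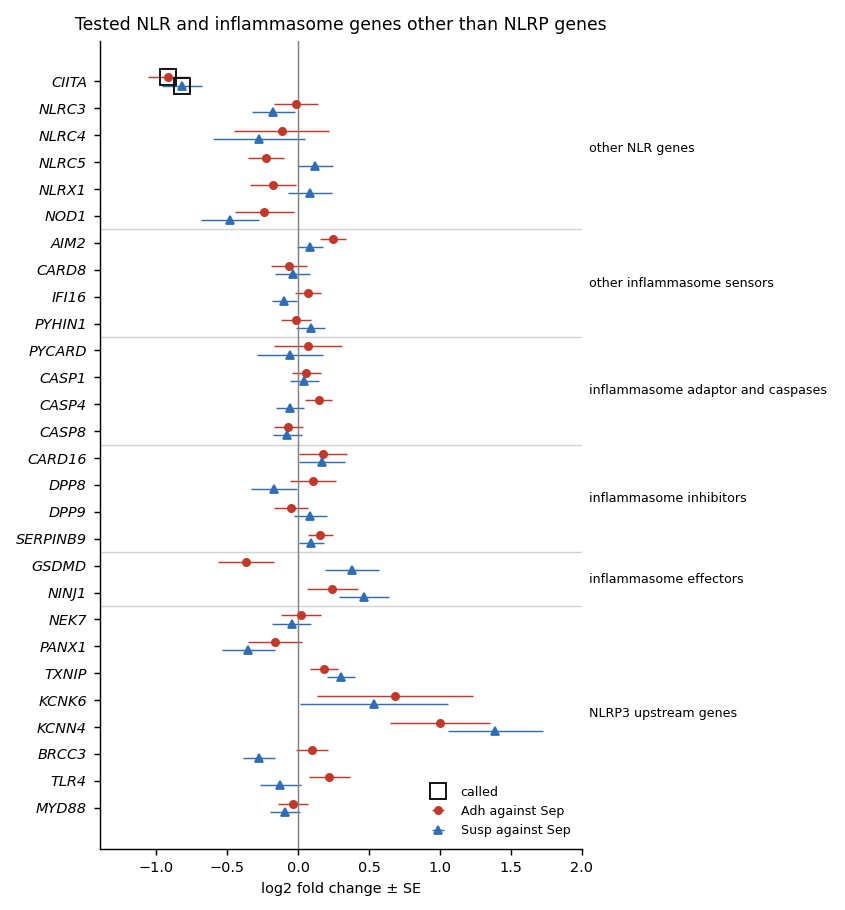
Log2 fold change with its SE (bars) of the 28 tested NLR and inflammasome genes other than NLRP genes, for Adh against Sep (circles) and Susp against Sep (triangles), grouped by role. Open squares mark calls, which fall on CIITA alone, at -0.91 and -0.82.

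Genes next to the members were tested as well. Within 200 kb of a member 24 other genes were tested and the edgeR test called 0 in each comparison, while DESeq2 called 1 for Adh against Sep. In each comparison 3 had an unadjusted edgeR p-value under 0.05. The share of all tested genes under that value is not given here, so nothing is read from that count. With 2.40%, 0.778% and 0.731% of all genes called, a count of 0 among 24 does not set the neighbours apart. Their median log2 change was -0.07 for Adh against Sep, -0.17 for Adh against Susp and 0.13 for Susp against Sep. The nearest tested gene beyond the NLRP7 and NLRP2 pair on the right was CTC-550B14.7, 5.05 kb from NLRP2, with a log2 change of -0.11 ± 0.40 from Sep to Adh (edgeR adjusted p = 0.911). On the left it was LILRB4, an inhibitory leukocyte receptor 253.2 kb away, at 0.84 ± 0.29 from Sep to Adh (edgeR adjusted p = 0.109) and 0.73 ± 0.28 from Sep to Susp (edgeR adjusted p = 0.220). Chosen after its value was seen, RDH13, a mitochondrial retinol dehydrogenase 72796 bases from NLRP7, was at -0.53 ± 0.15 from Sep to Adh (edgeR adjusted p = 0.0594).

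Beside NLRP11 the nearest tested genes were EPN1, an endocytic adaptor 75.5 kb to the left with a log2 change of 0.14 ± 0.23 from Sep to Adh (edgeR adjusted p = 0.786), and ZNF787, 250.6 kb to the right, at -0.14 ± 0.28 (edgeR adjusted p = 0.828). Next to NLRP1, MIS12 of the kinetochore, 8.60 kb away, was at 0.14 ± 0.12 (edgeR adjusted p = 0.536) and FAM64A, 825 kb away, at -0.07 ± 0.15 (edgeR adjusted p = 0.837). Next to NLRP3, ZNF496 was at -0.07 ± 0.10 (edgeR adjusted p = 0.753) and GCSAML at -0.43 ± 0.55 (edgeR adjusted p = 0.701), the latter a gene of low counts.

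**Figure D4:**
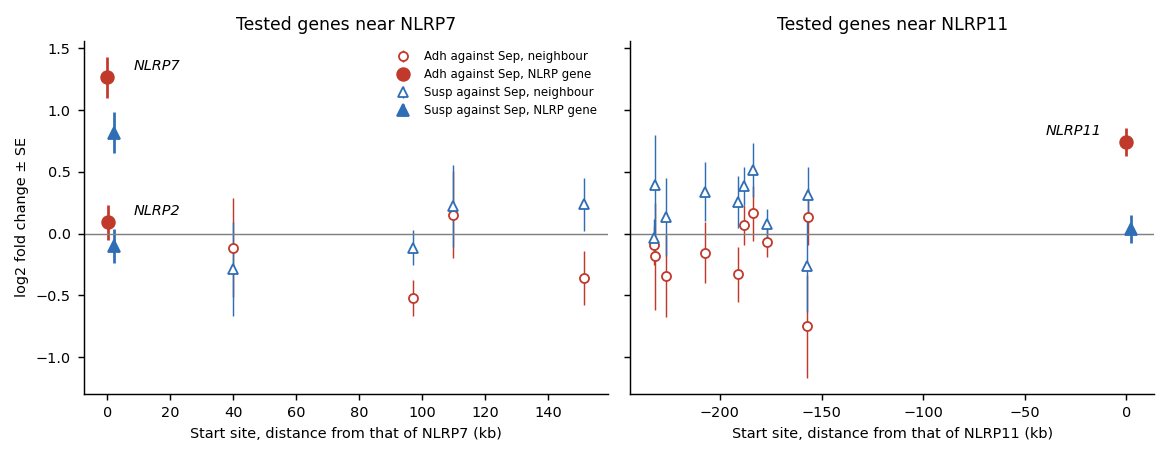
Log2 fold change with its SE (bars) of tested genes near NLRP7 (left) and NLRP11 (right), against the distance of their start site in kb. Filled symbols are NLRP genes and open symbols neighbours, with circles for Adh against Sep and triangles for Susp against Sep, whose filled triangles are drawn 2 kb to the right so that both can be seen. NLRP7 lies at 1.26 and 0.82, above all open symbols, while NLRP2 at nearly the same position lies at 0.09 and -0.10.

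The genes whose log2 CPM followed a member most closely over the 12 libraries were listed as a description, with r chosen as the highest among all tested genes. For NLRP7 they were PDHA1, a subunit of pyruvate dehydrogenase (r = 0.94), the G protein GNAZ (r = 0.93) and CKAP4 of the endoplasmic reticulum (r = 0.93). CKAP4 was at 57.5 ± 4.99, 71.8 ± 4.24 and 90.2 ± 3.77 CPM in Sep, Susp and Adh. For NLRP11 they were the mitochondrial superoxide dismutase SOD2 (r = 0.95), the Golgi protein GOLPH3 (r = 0.95) and HHLA3 (r = 0.93), and SOD2 was at 114.7 ± 5.68, 116.4 ± 4.97 and 147.8 ± 10.1 CPM. For NLRP1 they were VAMP1 (r = 0.95), a vesicle fusion protein, NBEAL2 (r = 0.93) and the RNA methyltransferase METTL3 (r = 0.93), with VAMP1 at 5.83 ± 1.33, 6.12 ± 0.66 and 3.17 ± 0.54 CPM. For NLRP2 they were KLHL29, ABCA11P and REEP5, with lower r of 0.87, 0.87 and 0.86.

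The stromal side was read from the mouse counts, in which 20 mouse Nlrp genes were listed. Nlrp3 alone exceeded 1 CPM, at 4.03 ± 0.95 CPM in MS-5 alone and 3.77 ± 0.55 CPM in the mouse reads of Adh (SD, n = 4). Nlrp2 was at 0.594 ± 0.289 and 0.500 ± 0.247 CPM, and Nlrp4f at 0.419 ± 0.237 and 0.574 ± 0.130 CPM. Among the 20 genes, 14 had no count in MS-5 alone and 11 had none in Adh. Mouse counts per library came to 10097555 to 17397651 in MS-5 alone and 29495404 to 34615602 in Adh, so Adh was read more deeply. Nlrp4c, Nlrp4e and Nlrp4g, which had counts in Adh only, had 3, 2 and 4 in all. The Adh human level of NLRP3 stayed at 2, 10, 0 and 0 counts beside 102 to 156 counts of mouse Nlrp3 in the same libraries.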

How the data were processed

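The authors divided read pairs by species with Xenome, aligned them to GRCh38 or GRCm38 with STAR 2.5.1b and counted them on Ensembl genes with featureCounts (Subread 1.5.2). The deposited values were raw counts, neither normalized nor filtered, and 20 columns of samples outside these groups were not used. Libraries were grouped by their titles. Members and gene lists were chosen with earlier results of these data known.

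Human counts of the 12 REC-1 libraries entered 1 edgeR 4.0.16 model (R 4.3.3) after filterByExpr and TMM scaling, tested by quasi-likelihood (legacy option), and p-values were adjusted by Benjamini-Hochberg over the 12861 tested genes. The SE was taken from the fold change and the F statistic. A gene was called when the fold change reached 1.5 and the adjusted p-value did not exceed 0.05. The model was also run on simulated counts, and that run is not used as support for any result here. Positions, lengths and start sites came from GENCODE release 44 and promoter letters from GRCh38. Mouse levels were CPM with no test. Alternatives were a replicate block, upper-quartile scaling, no filter, removal of mitochondrial genes, a model of each pair of groups alone, thinning, DESeq2 1.42.0 and leaving out each library. A gene was named if it was a member, was called in the list, was in a fixed set of inflammasome genes, was the nearest tested neighbour, or had one of the 3 highest r with a member. Other genes named, such as RDH13, KCNN4, NLRC3, IFI16 and ZBED3, were chosen after their values were seen.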

Additional observations from a re-analysis of the deposited data

Results flagged for a closer look

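Among 96 groups of 4 libraries (32 tested NLRP, NLR and inflammasome genes in 3 groups), 5 had a library whose gap to the nearest other exceeded Dixon's 95% critical value, and chance flags about 1 in 20. NLRP2 was at 16.95 CPM in Sep replicate 3 beside 22.67 to 22.93 CPM in the other Sep libraries. The ratio of NLRP7 to NLRP2 counts in that library, 0.383, was the highest of Sep and still below every coculture library. NLRC4 was at 5.51 CPM in Susp replicate 1 beside 2.56 to 2.96 CPM. IFI16 was at 610.8 CPM in Sep replicate 1 beside 502.4 to 518.2 CPM. SERPINB9 was at 37.5 CPM in Adh replicate 4 beside 41.5 to 42.1 CPM, and NEK7 at 45.7 CPM in Adh replicate 1 beside 38.2 to 39.3 CPM.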

How the results depend on the processing

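The log2 change of NLRP7 from Sep to Adh ranged from 1.17 to 1.36 over 19 alternatives, and that of NLRP11 from 0.67 to 0.78 from Sep and from 0.63 to 0.77 from Susp, each past the threshold in all 19. CIITA was called in every alternative of both comparisons with Sep. The count of list genes called between Adh and Susp became 1 (GSDMD) with the replicate block, with no filter and with DESeq2, and ranged from 0 to 1 when libraries were left out, GSDMD being called without Sep replicate 1. Between Susp and Sep it became 2 (KCNN4 joining CIITA) with the replicate block, no filter, a model of the 2 groups alone, thinned counts and DESeq2, and ranged from 1 to 2 when libraries were left out, KCNN4 being called without Adh replicate 2. Neighbours called between Adh and Sep became 1 with DESeq2 (CTC-524C5.2) and ranged from 0 to 1 when libraries were left out (RDH13, without Sep replicate 1). Between Adh and Susp they became 1 (PPP1R12C) with the replicate block and with no filter. The causes were not tested.

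Over all genes, calls for Adh against Sep, Adh against Susp and Susp against Sep were 309, 100 and 94, and became 384, 281 and 175 with the replicate block, 503, 341 and 217 with no filter and 527, 282 and 172 with DESeq2. Leaving out a library gave 143 to 519, 51 to 165 and 64 to 135. The deviations of same-numbered libraries from their group means correlated with r over 0.1 for 3 of 4 numbers between Adh and Sep. In each other comparison 1 of 4 did. Replicate 1 had r of 0.308, 0.312 and 0.321 in the 3 comparisons. These values do not settle whether the numbers mark shared cultures. The sample codes share a digit within each replicate number, and the study describes Susp and Adh as fractions within the cocultures. The main model left the numbers out, and the replicate block took them as pairs. At 62 to 222 counts a library for NLRP7, and under 17 for NLRP3 and NLRP4, depth limited the precision, and a difference in the last pair could not be read.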
